A study of Homo sapiens with 16 samples.

Results

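The 45 genes described here act in mitosis and cytokinesis: they drive cells into mitosis, build the spindle, attach and separate the chromosomes and divide the cell. They were taken by gene symbol from a list by function, drawn up with earlier results of these data known. A gene was measured by the brightest probe set that carried its symbol and no other, and 43 of the 45 genes were measured in this way, among 22395 genes in all. All 43 lay within the 70% of genes with the highest mean level and were tested. BUB1B and CENPA were found only on probe sets that carry a neighbouring gene's symbol as well, and their shared values are given apart.

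The cells were DLD1 and HCT116, 2 human colon cancer lines, each present as 2 PIK3CA derivatives, where PIK3CA encodes the catalytic subunit of a phosphoinositide kinase. The Mut derivative keeps the mutant allele after knockout of the wild-type allele, and the WT derivative keeps the wild-type allele after knockout of the mutant one, so that none of the derivatives is an unmanipulated parent line and each genotype of a line stands for a single derivative. All cells were in DMEM with 10% dialyzed fetal bovine serum, with glutamine or without it for 24 h. Each of the 8 groups (DLD1 Mut, DLD1 WT, HCT116 Mut and HCT116 WT, with and without glutamine) holds 2 arrays labelled as biological replicates, and the p-values measure the spread between these arrays, whatever separates them.

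Most of these genes are switched on together late in each cell cycle and are nearly silent in cells that are not dividing, which is why MKI67 and TOP2A are used as proliferation markers. Their promoters are known targets of complexes of the MuvB core, which act as repressors with RB-like proteins and E2F4 in resting cells and as activators with MYBL2 and FOXM1 in dividing cells. MuvB reads the cell cycle homology region, whose core is TTTGAA or TTCGAA, and NF-Y reads CCAAT boxes. Glutamine supplies carbon and nitrogen for nucleotide and amino acid synthesis, which colon cancer lines draw on to grow.

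Promoter windows of RefSeq (GRCh38.p14), which run from 250 bases before to 50 bases after an annotated start, were matched by symbol for 38 of the 45 genes and gave 45 windows. The promoter of UBE2C was planned for display, but no window matched its symbol. The 4 below were planned as well. CCNB1 and CCNA2, cyclins of mitotic entry, and CDC20, the activator of the anaphase-promoting complex, were set by name. SPC25, a kinetochore gene, was set as the member with the largest fall in HCT116 WT cells. The 4 lie at chr5:69166900-69167149 (CCNB1, plus strand), chr1:43358731-43358980 (CDC20, plus strand), chr4:121823884-121824133 (CCNA2, minus strand) and chr2:168890431-168890680 (SPC25, minus strand). Each is the 250 bases before the start, 5′ to 3′ on the gene's strand, in lower case except for the motif TTTGAA, its variant form TTCGAA and the NF-Y box CCAAT, which are in capitals on either strand, reverse complements included.
CCNB1: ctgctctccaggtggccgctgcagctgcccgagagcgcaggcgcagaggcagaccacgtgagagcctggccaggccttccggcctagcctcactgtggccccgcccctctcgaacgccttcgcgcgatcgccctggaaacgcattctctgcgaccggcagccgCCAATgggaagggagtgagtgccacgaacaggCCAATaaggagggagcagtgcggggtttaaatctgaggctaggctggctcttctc
CDC20: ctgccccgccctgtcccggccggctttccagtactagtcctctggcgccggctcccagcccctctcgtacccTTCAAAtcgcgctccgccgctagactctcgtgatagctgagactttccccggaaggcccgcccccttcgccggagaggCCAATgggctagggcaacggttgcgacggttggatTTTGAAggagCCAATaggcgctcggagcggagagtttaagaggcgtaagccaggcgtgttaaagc
CCNA2: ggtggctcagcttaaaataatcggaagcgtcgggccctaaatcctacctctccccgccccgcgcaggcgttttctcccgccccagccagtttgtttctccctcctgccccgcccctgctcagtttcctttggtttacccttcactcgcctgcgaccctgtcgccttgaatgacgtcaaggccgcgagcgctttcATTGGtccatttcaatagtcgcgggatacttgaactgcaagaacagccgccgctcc
SPC25: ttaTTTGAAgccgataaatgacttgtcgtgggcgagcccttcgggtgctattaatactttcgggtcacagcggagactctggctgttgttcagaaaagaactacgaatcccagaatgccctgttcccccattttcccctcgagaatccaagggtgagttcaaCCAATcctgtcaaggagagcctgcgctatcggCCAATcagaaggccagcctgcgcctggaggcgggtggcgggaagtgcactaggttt

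CCNB1, CDC20 and SPC25 carry CCAAT boxes at 2 positions and CCNA2 at 1, and the box nearest the start began 55 bases before it in CCNB1 and CDC20 and 56 bases before it in CCNA2 and SPC25. CDC20 also held TTTGAA 65 and 178 bases before its start, and SPC25 held it 247 bases before and again 3 bases before, where it runs past the start and so past the printed bases. Neither TTTGAA nor TTCGAA lay in the printed bases of CCNB1 and CCNA2, which says only that these letters are not there. Over the 300-base windows, on both strands, TTTGAA or TTCGAA was found in 33 of the 45 windows (73.3%), against 16.4% of all 35114 windows. CCAAT was found in 36 windows (80.0%), against 34.6% of all windows, and at 2 or more positions in 51.1%, against 10.8%. Both kinds of motif lay in 62.2% of the members' windows and in 6.4% of all windows. A match is a run of letters and was not tested as a binding site.

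The deposited values are intensities, and levels are given here as their log2. The arrays' median intensities lay between 3.57 and 3.70, and replicate arrays correlated at 0.991 to 0.993 over all genes. For the members the median difference between 2 replicate arrays was 0.07 to 0.10 on the log2 scale. Of 8 colon epithelium markers all were tested, with EPCAM at group means of 10.45 to 11.12 and VIL1 and LGALS4 dim, at 1.56 to 3.49. Fibroblast and endothelial markers stayed at or under 3.45. The 5 leukocyte markers had a summed level of 5.0 to 7.84 over the arrays, and only CD68 was bright enough to test, while PTPRC and CD3E stayed at or under 1.43 and LYZ at or under 1.76. CD14 had group means of 3.43 with glutamine and 1.22 without in DLD1 Mut cells. It had 2.17 and 1.45 in DLD1 WT cells and at most 1.26 in HCT116 cells. The level of CD68 was higher without glutamine in DLD1 WT (0.59 ± 0.12, SE), HCT116 Mut (1.20 ± 0.12) and HCT116 WT cells (0.96 ± 0.12), and the part of other cells in the results was not tested. PIK3CA itself was not analysed here, so the genotype labels were not checked on that gene. In arrays of bulk RNA, fewer dividing cells and less RNA per dividing cell cannot be told apart.

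Glutamine withdrawal lowered nearly the whole set in HCT116 WT cells. The level was lower without glutamine than with it for all 43 genes, and 36 passed the test (adjusted p under 0.05, limma with Benjamini-Hochberg adjustment over 15676 genes), against 10.1% of all genes called lower. The log2 differences ran from -1.5 to -0.22 with a median of -0.75, against 0.01 over all genes tested. None of the 43 was called higher, where 10.3% of all genes were, and none was higher at an unadjusted p under 0.05 either. For every one of the 43 genes both arrays without glutamine lay below both arrays with it. How many of all genes separated in this way is not given here. The count of falls was 31 to 36 when any single array was left out. The calls covered every role: 6 of 8 genes of mitotic entry, all 3 of the spindle checkpoint, 2 of 4 of anaphase onset, 3 of 4 of the chromosomal passenger complex, 4 of 5 at the centromere and kinetochore, all 6 kinesins, 7 of 8 spindle and centrosome genes, all 3 cytokinesis genes, and MKI67 and TOP2A.

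The other derivatives gave fewer falls, and rises beside them. In DLD1 Mut cells 25 of the 43 genes fell and 2 rose, against 16.8% of all genes in each direction, and the median was -0.30, against -0.03 over all genes. In DLD1 WT cells 9 fell and 4 rose, against 13.0% and 14.0%, and the median was -0.02. In HCT116 Mut cells 9 fell and 10 rose, against 16.5% and 16.4%, and the median was 0.05. The share of the members that rose was 9.30% in DLD1 WT and 23.3% in HCT116 Mut cells, and 20.9% fell in each, near what all genes gave, while 58.1% of the members fell in DLD1 Mut cells and 83.7% in HCT116 WT cells. Both arrays without glutamine lay below both with it for 29 genes in DLD1 Mut, 16 in DLD1 WT and 16 in HCT116 Mut cells, and above for 4, 14 and 18. These array counts describe the members alone, since the share of all genes separated so is not given here. Without the first DLD1 WT array lacking glutamine the rises in DLD1 WT cells came to 2.

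**Figure D1:**
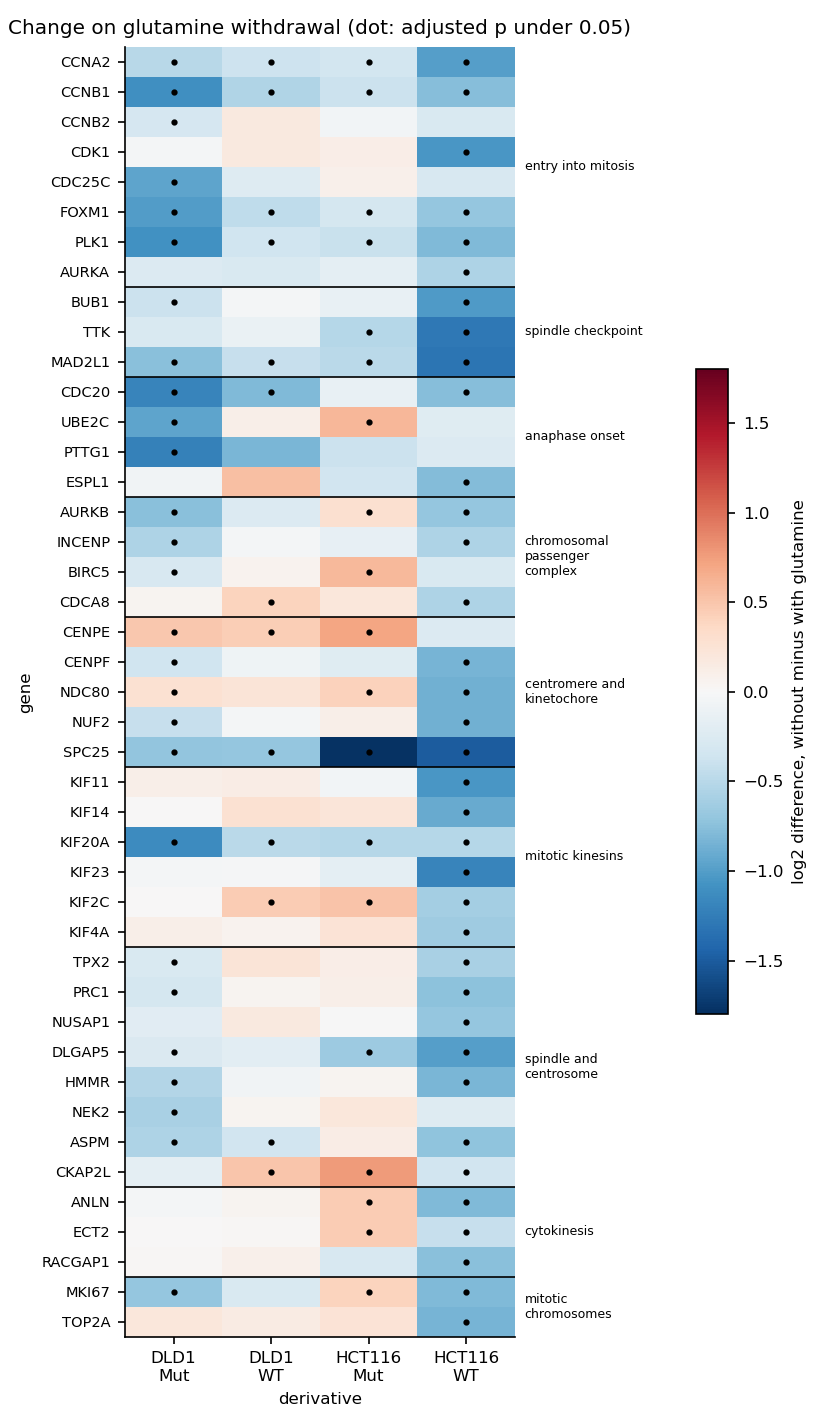
Change in log2 intensity on glutamine withdrawal for the 43 genes (vertical, grouped by role) in the 4 derivatives (horizontal), with blue for lower, red for higher and a dot where the adjusted p was under 0.05. The HCT116 WT column is blue for every gene with 36 dots, while the other columns hold 27, 13 and 19 dots in both colours.

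Of the 8 genes of mitotic entry, 6 fell in DLD1 Mut, 4 in DLD1 WT, 4 in HCT116 Mut and 6 in HCT116 WT cells, and none rose. CCNB1, cyclin B1, which activates CDK1, read 8.80 and 8.70 with glutamine and 7.57 and 7.71 without it in DLD1 Mut cells, and 8.78 and 8.82 against 8.22 and 8.30 in DLD1 WT cells. In HCT116 Mut cells it read 8.88 and 8.82 against 8.52 and 8.40, and in HCT116 WT cells 8.79 and 8.83 against 8.10 and 7.97. The arrays with and without glutamine did not overlap in any derivative. The falls were 1.10 ± 0.09 (SE; 2.15-fold, adjusted p = 1.13e-05) in DLD1 Mut, 0.54 ± 0.09 in DLD1 WT, 0.39 ± 0.09 in HCT116 Mut and 0.77 ± 0.09 in HCT116 WT cells. The call in HCT116 Mut cells was lost when their second array without glutamine was left out (adjusted p = 0.0601).

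FOXM1, the transcription factor of late cell cycle genes, showed the same order. Its level was 8.60 and 8.43 with glutamine and 7.58 and 7.45 without in DLD1 Mut cells, and 8.60 and 8.51 against 8.14 and 8.04 in DLD1 WT cells. In HCT116 cells it was 8.26 and 8.41 against 8.02 and 8.0 in Mut and 8.23 and 8.17 against 7.53 and 7.49 in WT. The arrays did not overlap in any derivative, and HCT116 Mut cells showed the narrowest gap. The log2 differences were -1.0 ± 0.10 (adjusted p = 2.88e-05), -0.46 ± 0.10, -0.32 ± 0.10 and -0.69 ± 0.10 in the order DLD1 Mut, DLD1 WT, HCT116 Mut and HCT116 WT. The call in HCT116 Mut cells was lost without their second array with glutamine or without either of their arrays lacking it (adjusted p up to 0.154).

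PLK1, a kinase that promotes mitotic entry and spindle assembly, read 10.14 and 10.04 with glutamine and 8.95 and 9.05 without in DLD1 Mut cells, and 10.05 and 10.02 against 9.62 and 9.73 in DLD1 WT cells. It read 10.45 and 10.51 against 10.07 and 10.09 in HCT116 Mut cells and 10.30 and 10.21 against 9.44 and 9.49 in HCT116 WT cells. No arrays with and without glutamine overlapped within a derivative. The falls of 1.09 ± 0.09 (2.13-fold), 0.36 ± 0.09, 0.40 ± 0.09 and 0.79 ± 0.09 all passed the test, and that in DLD1 WT cells was lost without the first array of either DLD1 WT group (adjusted p up to 0.0797).

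CDK1, the kinase that these cyclins activate, gave another pattern. It read 7.65 and 7.77 with glutamine and 7.61 and 7.74 without in DLD1 Mut cells, and 7.70 and 7.55 against 7.79 and 7.82 in DLD1 WT cells. In HCT116 Mut cells the arrays read 7.95 and 7.64 against 7.78 and 8.04, which overlap, while in HCT116 WT cells they read 7.94 and 7.87 against 6.95 and 6.74. Only HCT116 WT cells gave a difference past the test, of -1.05 ± 0.13 (2.07-fold, adjusted p = 0.000356), and the other 3 differences were -0.04 to 0.18. Among the other entry genes CCNA2, cyclin A2, fell in all 4 derivatives (-0.50, -0.37, -0.33 and -0.99, each ± 0.07). CDC25C, the phosphatase that frees CDK1 from inhibition, fell in DLD1 Mut cells (-0.95 ± 0.14), and CCNB2 fell there too (-0.30 ± 0.10), though its call was lost in 7 alternative settings, 3 of them left-out DLD1 Mut arrays (adjusted p up to 0.207). AURKA, the spindle pole kinase, was called only in HCT116 WT cells (-0.56 ± 0.17), and this call was lost in 5 alternative settings, 3 of them left-out HCT116 WT arrays (adjusted p up to 0.235).

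**Figure D2:**
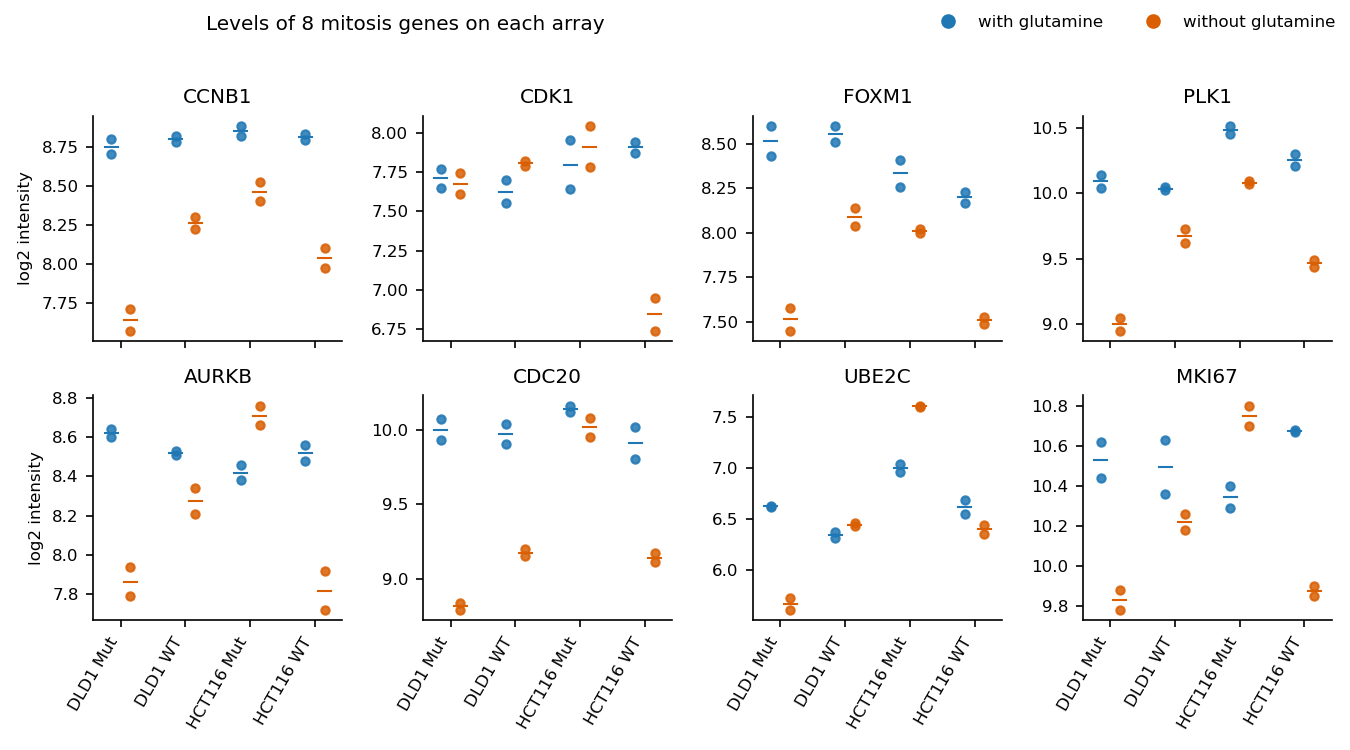
Log2 intensity (vertical) of 8 genes on each array, 2 points per group with their mean as a line, for the 4 derivatives (horizontal) with glutamine in blue and without it in orange. CCNB1, FOXM1 and PLK1 drop in every derivative, CDK1 drops in HCT116 WT cells, and AURKB, UBE2C and MKI67 rise in HCT116 Mut cells.

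The spindle checkpoint genes, which hold anaphase until every chromosome is attached, numbered 3, of which 3 fell in HCT116 WT, 2 in HCT116 Mut, 2 in DLD1 Mut and 1 in DLD1 WT cells. MAD2L1 read 8.63 and 8.54 with glutamine and 8.01 and 8.19 without in HCT116 Mut cells, and 8.53 and 8.64 against 7.33 and 7.18 in HCT116 WT cells. The DLD1 arrays read 8.34 and 8.22 against 7.56 and 7.51 in Mut and 8.44 and 8.26 against 7.94 and 7.93 in WT cells. The arrays did not overlap in any derivative, and the differences were -0.48 ± 0.10, -1.32 ± 0.10 (2.50-fold, adjusted p = 2.01e-05), -0.75 ± 0.10 and -0.41 ± 0.10 in that order. The call in DLD1 WT cells was lost without the first DLD1 WT array with glutamine or without either of those lacking it (adjusted p up to 0.106). TTK, the kinase that starts the checkpoint signal, fell in HCT116 Mut (-0.52 ± 0.11) and HCT116 WT cells (-1.29 ± 0.11) and differed by -0.27 ± 0.11 and -0.12 ± 0.11 in DLD1 Mut and WT cells, which did not pass the test. BUB1, another checkpoint kinase, fell in HCT116 WT (-1.02) and DLD1 Mut cells (-0.39).

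The genes of anaphase onset parted from each other. CDC20, which activates the anaphase-promoting complex, read 10.07 and 9.93 with glutamine and 8.79 and 8.84 without in DLD1 Mut cells, and 10.04 and 9.90 against 9.15 and 9.20 in DLD1 WT cells. In HCT116 cells it read 10.16 and 10.12 against 10.08 and 9.95 in Mut and 10.02 and 9.80 against 9.11 and 9.17 in WT. The fall was 1.19 ± 0.10 (2.28-fold) in DLD1 Mut, 0.77 ± 0.10 in HCT116 WT and 0.79 ± 0.10 in DLD1 WT cells, and the difference of -0.13 ± 0.10 in HCT116 Mut cells did not pass (adjusted p = 0.396).

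UBE2C, the ubiquitin-conjugating enzyme that works with that complex, moved in opposite directions in the 2 Mut derivatives. It read 6.62 and 6.63 with glutamine and 5.73 and 5.61 without in DLD1 Mut cells, and 6.96 and 7.04 against 7.60 and 7.61 in HCT116 Mut cells. In the WT derivatives it read 6.32 and 6.37 against 6.46 and 6.43 in DLD1 and 6.55 and 6.69 against 6.44 and 6.36 in HCT116. The fall in DLD1 Mut cells was 0.95 ± 0.09 (1.93-fold, adjusted p = 1.73e-05) and the rise in HCT116 Mut cells 0.60 ± 0.09 (1.52-fold, adjusted p = 0.000355). The WT derivatives differed by 0.10 ± 0.09 and -0.22 ± 0.09, and neither passed.

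PTTG1, the anaphase inhibitor securin, had the largest standard error among the 43 genes (0.29). It read 4.01 and 3.92 against 2.61 and 2.89 in DLD1 Mut cells and 4.51 and 3.91 against 3.50 and 3.28 in DLD1 WT cells. It read 4.43 and 3.43 against 3.47 and 3.61 in HCT116 Mut and 4.26 and 4.07 against 4.04 and 3.78 in HCT116 WT cells. Only the fall of 1.22 ± 0.29 in DLD1 Mut cells passed, and it was lost without their first array lacking glutamine (adjusted p = 0.0533). PTTG1 has near-identical gene copies elsewhere in the genome, so its signal is uncertain. ESPL1, the protease that securin holds back, fell in HCT116 WT cells (-0.78 ± 0.18), a call lost without the first HCT116 WT array of either group (adjusted p up to 0.101).

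In the chromosomal passenger complex, which corrects faulty attachments and guides cytokinesis, the kinase AURKB read 8.64 and 8.60 with glutamine and 7.94 and 7.79 without in DLD1 Mut cells, and 8.53 and 8.51 against 8.34 and 8.21 in DLD1 WT cells. In HCT116 Mut cells it read 8.46 and 8.38 against 8.76 and 8.66, and in HCT116 WT cells 8.56 and 8.48 against 7.72 and 7.92. No group pair overlapped, and only in HCT116 Mut cells were the arrays without glutamine the higher ones. The falls in DLD1 Mut (0.75 ± 0.10) and HCT116 WT cells (0.70 ± 0.10) passed. The rise in HCT116 Mut cells (0.29 ± 0.10, adjusted p = 0.0461) lay at the threshold and was lost in 18 of 23 alternative settings. BIRC5, survivin, rose in HCT116 Mut cells by 0.59 ± 0.09, CDCA8, borealin, rose in DLD1 WT cells by 0.40 ± 0.09, and INCENP, the scaffold, fell in DLD1 Mut and HCT116 WT cells (both -0.56). The rise of CDCA8 was lost without the second DLD1 WT array with glutamine or the first without it (adjusted p up to 0.0589), and the fall of INCENP in HCT116 WT cells without their second array with glutamine (adjusted p = 0.0519).

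At the kinetochore, subunits of one complex went separate ways. SPC25, a subunit of the NDC80 complex that binds microtubules, read 6.68 and 6.45 with glutamine and 4.94 and 4.63 without in HCT116 Mut cells, and 6.58 and 6.36 against 5.06 and 4.89 in HCT116 WT cells. In DLD1 it read 6.01 and 6.07 against 5.27 and 5.39 in Mut and 6.50 and 6.46 against 5.69 and 5.86 in WT cells. The falls of 1.78 ± 0.14 (3.43-fold, adjusted p = 7.85e-06) in HCT116 Mut and 1.5 ± 0.14 (2.82-fold) in HCT116 WT cells had the largest size among the 43 genes in those derivatives, and SPC25 also fell by 0.71 ± 0.14 and 0.70 ± 0.14 in DLD1 Mut and WT cells.

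NDC80, which names that complex, read 7.85 and 7.68 against 8.13 and 8.22 in HCT116 Mut cells and 7.78 and 7.79 against 6.94 and 6.92 in HCT116 WT cells. The DLD1 arrays read 7.22 and 7.17 against 7.39 and 7.56 in Mut and 7.30 and 7.42 against 7.57 and 7.60 in WT cells. It fell in HCT116 WT cells (-0.86 ± 0.10) and rose in HCT116 Mut (0.41 ± 0.10) and DLD1 Mut cells (0.28 ± 0.10, adjusted p = 0.041). The first rise was lost without the second array of either HCT116 Mut group (adjusted p up to 0.0585), and the second in 12 of 23 alternative settings. NUF2, another subunit, fell in HCT116 WT (-0.86) and DLD1 Mut cells (-0.42), and the second call was lost without any 1 of the 4 DLD1 Mut arrays (adjusted p up to 0.128).

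CENPE, the kinesin that carries chromosomes to the spindle equator, was the member that rose most widely. It read 7.48 and 7.24 with glutamine and 7.86 and 7.83 without in DLD1 Mut cells, and 7.30 and 7.53 against 7.85 and 7.85 in DLD1 WT cells. It read 7.46 and 7.47 against 8.14 and 8.21 in HCT116 Mut cells and 7.39 and 7.50 against 7.24 and 7.17 in HCT116 WT cells. The rises were 0.49 ± 0.11, 0.44 ± 0.11 and 0.71 ± 0.11 (adjusted p = 0.000488 for the last), and HCT116 WT cells differed by -0.24 ± 0.11, which did not pass. The rise in DLD1 WT cells was lost without the first DLD1 WT array with glutamine or without either of those lacking it (adjusted p up to 0.0919).

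Among the kinesins, KIF20A, which works at the central spindle, fell in all 4 derivatives, by 1.13 ± 0.12 in DLD1 Mut cells and by 0.49 to 0.52 in the others. Its call was lost in DLD1 WT cells without their second array of either group, in HCT116 Mut cells without their first array with glutamine and in HCT116 WT cells without the first array of either group (adjusted p up to 0.111). KIF2C, which takes microtubules apart, read 8.44 and 8.40 against 8.38 and 8.48 in DLD1 Mut cells, which overlap, and 8.51 and 8.42 against 8.97 and 8.90 in DLD1 WT cells. It read 8.44 and 8.58 against 9.04 and 9.01 in HCT116 Mut cells and 8.52 and 8.47 against 7.78 and 7.99 in HCT116 WT cells. It rose by 0.46 ± 0.10 in DLD1 WT and 0.52 ± 0.10 in HCT116 Mut cells and fell by 0.61 ± 0.10 in HCT116 WT cells. KIF11, which pushes the spindle poles apart, KIF14, KIF23 and KIF4A fell in HCT116 WT cells (-1.05, -0.91, -1.19 and -0.64) and passed in no other derivative. The call of KIF4A was lost without any 1 of the 4 HCT116 WT arrays (adjusted p up to 0.147).

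Of the spindle and centrosome genes, CKAP2L, a spindle protein, read 7.67 and 7.69 with glutamine and 8.53 and 8.36 without in HCT116 Mut cells, and 7.82 and 7.88 against 7.52 and 7.50 in HCT116 WT cells. In DLD1 it read 8.05 and 8.17 against 7.89 and 7.99 in Mut and 8.15 and 8.21 against 8.69 and 8.66 in WT cells. It rose by 0.76 ± 0.09 (1.70-fold, adjusted p = 0.000104) in HCT116 Mut and by 0.50 ± 0.09 in DLD1 WT cells and fell by 0.34 ± 0.09 in HCT116 WT cells. That fall was lost when any 1 of the 4 HCT116 WT arrays was left out (adjusted p up to 0.107). DLGAP5, which steadies the fibres that hold chromosomes, read 8.52 and 8.56 against 7.88 and 7.89 in HCT116 Mut cells and 8.62 and 8.61 against 7.59 and 7.66 in HCT116 WT cells. The DLD1 arrays read 8.65 and 8.60 against 8.29 and 8.45 in Mut and 8.55 and 8.55 against 8.33 and 8.39 in WT cells. It fell in HCT116 Mut (-0.65 ± 0.08), HCT116 WT (-0.99 ± 0.08) and DLD1 Mut cells (-0.26 ± 0.08), and the last call was lost in 6 alternative settings, 3 of them left-out DLD1 Mut arrays (adjusted p up to 0.219). NEK2, a centrosome kinase, fell in DLD1 Mut cells (-0.59), HMMR, which binds spindle microtubules, there and in HCT116 WT cells (-0.53 and -0.82), and ASPM, a spindle pole protein, in those and in DLD1 WT cells (-0.55, -0.72 and -0.35). The call of ASPM in DLD1 WT cells was lost without either DLD1 WT array with glutamine or the second without it (adjusted p up to 0.156).

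The cytokinesis genes ANLN, the scaffold of the contractile ring, and ECT2, which activates RHOA at the division plane, both rose in HCT116 Mut cells (0.46 ± 0.08 each) and fell in HCT116 WT cells (-0.79 and -0.42). In DLD1 their differences were -0.04 to 0.05 and did not pass. RACGAP1, their partner in the central spindle, fell in HCT116 WT cells (-0.75 ± 0.15), from a level close to the darkest genes tested (group means of 1.60 to 2.36), and the call was lost without the first HCT116 WT array with glutamine (adjusted p = 0.0517). MKI67, a coat protein of mitotic chromosomes, read 10.62 and 10.44 against 9.88 and 9.78 in DLD1 Mut cells and 10.36 and 10.63 against 10.26 and 10.18 in DLD1 WT cells. It read 10.40 and 10.29 against 10.70 and 10.80 in HCT116 Mut cells and 10.68 and 10.67 against 9.90 and 9.85 in HCT116 WT cells. The falls in DLD1 Mut (0.70 ± 0.11) and HCT116 WT cells (0.80 ± 0.11) and the rise in HCT116 Mut cells (0.40 ± 0.11, adjusted p = 0.0153) passed. The rise was lost without the second array of either HCT116 Mut group (adjusted p up to 0.0909). TOP2A, the topoisomerase that untangles chromosomes, fell in HCT116 WT cells (-0.83 ± 0.09).

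Sorted by derivative, 7 of the 43 genes fell in all 4: CCNA2, CCNB1, FOXM1, KIF20A, MAD2L1, PLK1 and SPC25, against 3.67% of all genes. Of these, CCNA2 and SPC25 kept the call in every derivative under every alternative setting. None rose in all 4. A further 10 fell in HCT116 WT cells and were not called in the other 3 derivatives, namely AURKA, CDK1, ESPL1, KIF11, KIF14, KIF23, KIF4A, NUSAP1, RACGAP1 and TOP2A, against 1.56% of all genes. For 6 of these 10 the test of the difference between the HCT116 derivatives passed, and for AURKA, ESPL1, KIF4A and RACGAP1 it did not (adjusted p = 0.354, 0.345, 0.0525 and 0.222). The interaction call of NUSAP1, one of the 6, was lost in 11 alternative settings, among them 7 of the 8 HCT116 arrays left out singly (adjusted p up to 0.136), and that of CDK1 with HCT116 fitted alone (adjusted p = 0.0527). ANLN, AURKB, CKAP2L, ECT2, KIF2C, MKI67 and NDC80 fell in HCT116 WT and rose in HCT116 Mut cells, against 0.287% of all genes, and ANLN, ECT2 and KIF2C kept both calls under every alternative setting. Across the 43 genes the withdrawal differences had a Pearson r of 0.80 between the DLD1 derivatives and 0.59 between the HCT116 derivatives. Between the lines r was 0.61 for DLD1 WT with HCT116 Mut, 0.40 for DLD1 Mut with HCT116 Mut, 0.23 for DLD1 WT with HCT116 WT and -0.09 for DLD1 Mut with HCT116 WT cells. These r are a description across genes, which are not independent replicates.

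The difference between the withdrawal responses of Mut and WT cells, an interaction of genotype and glutamine, was above 0 for 40 of the 43 genes in HCT116 cells and below it for SPC25 (-0.28), PTTG1 (-0.14) and KIF20A (-0.02). Of the 43 genes 28 were called higher, meaning that the withdrawal difference was higher in Mut than in WT cells, against 4.75% of all genes, and the median was 0.82, against 0.00 over all genes. None was called lower, where 4.75% of all genes were, and none at an unadjusted p under 0.05. NDC80 stood first with 1.27 ± 0.13 (adjusted p = 0.000647), followed by ANLN (1.25 ± 0.12), MKI67 (1.20 ± 0.15) and CDK1 (1.17 ± 0.19). AURKB (0.99 ± 0.14), UBE2C (0.82 ± 0.12) and CDC20 (0.64 ± 0.14) passed as well. CCNB1, FOXM1 and PLK1 had differences of 0.38 ± 0.13, 0.36 ± 0.14 and 0.39 ± 0.12, which did not pass (adjusted p = 0.0957, 0.131 and 0.0691). The call of CDC20 was lost without the second HCT116 Mut or first HCT116 WT array with glutamine, or the first array of either derivative without it (adjusted p up to 0.0955). With HCT116 fitted alone 17 genes were called.

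In DLD1 cells the same difference had the opposite sign for most members and seldom passed. The withdrawal difference was lower in Mut than in WT cells for 38 of the 43 genes and the median was -0.36, against -0.02 over all genes. UBE2C (-1.05 ± 0.12, adjusted p = 0.00585), PLK1 (-0.73 ± 0.12) and CKAP2L (-0.67 ± 0.13) were called lower, 3 genes against 0.568% of all genes. At an unadjusted p under 0.05 the number was 22, and the share of all genes at that threshold is not given here. None was called higher, where 0.255% of all genes were, and none at an unadjusted p under 0.05. When any 1 of the 8 DLD1 arrays was left out, UBE2C alone of the 3 stayed called, and with DLD1 fitted alone none did. The interaction differed between the lines: the DLD1 value minus the HCT116 value was called lower for 28 of the 43 genes, against 1.52% of all genes, and for none higher, where 0.612% of all genes were and none of the members at an unadjusted p under 0.05. UBE2C (-1.88 ± 0.17, adjusted p = 0.00143), CKAP2L (-1.77 ± 0.18), MKI67 (-1.62 ± 0.22) and KIF2C (-1.58 ± 0.19) led it. This comparison was added after the interactions within the lines had been seen. Its count came to 14 and 15 without the first and second DLD1 WT arrays lacking glutamine, 15 without the first DLD1 Mut array with it, 17 and 18 without the first and second DLD1 Mut arrays lacking it, and 18 without the first HCT116 WT array with it.

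**Figure D3:**
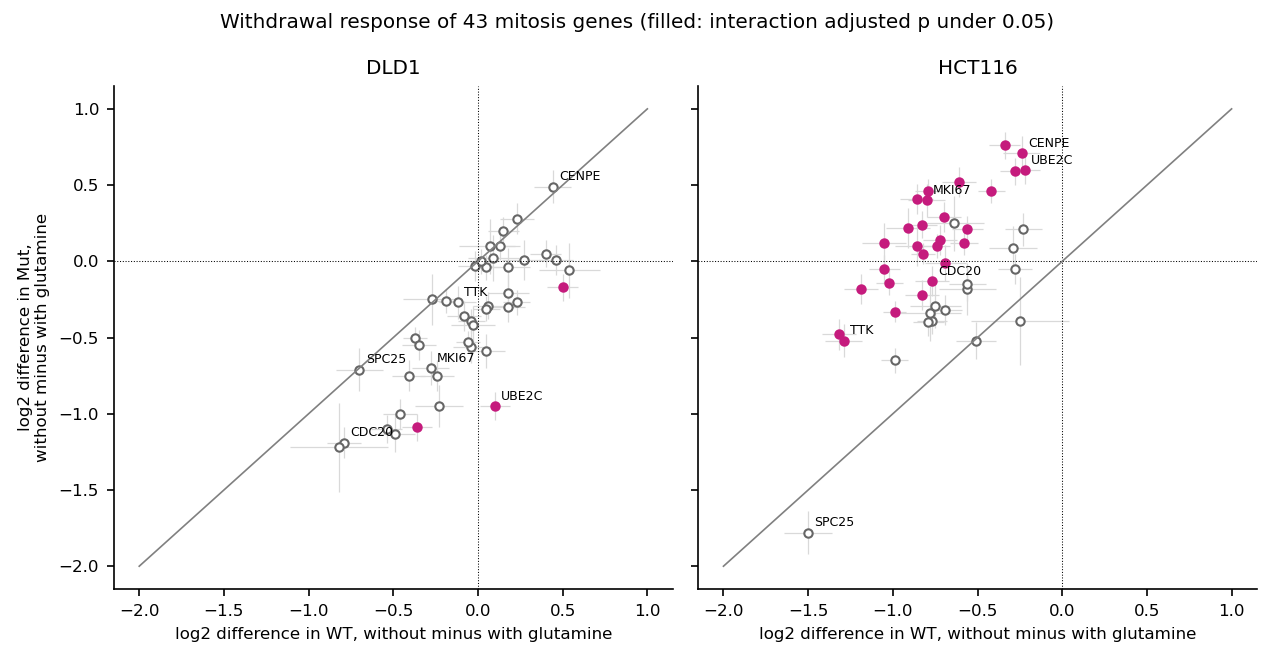
Log2 difference on withdrawal in Mut cells (vertical) against WT cells (horizontal) for the 43 genes in DLD1 (left) and HCT116 (right), with standard errors as thin lines and filled points where the interaction passed the test. In DLD1 38 points lie below the line of equal response and 3 are filled, and in HCT116 40 lie above it and 28 are filled.

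With glutamine present, the members differed little between Mut and WT cells. In DLD1 1 gene was called lower in Mut cells and 2 higher, against 3.20% and 2.60% of all genes: ANLN (-0.50 ± 0.08), CDC25C (0.82 ± 0.14) and HMMR (0.42 ± 0.07). The call of HMMR was lost without the second DLD1 Mut array with glutamine (adjusted p = 0.0544), which left 1 gene called higher. In HCT116 1 was called lower and 1 higher, against 2.12% and 1.12%: ANLN (-0.36 ± 0.08, adjusted p = 0.0418) and UBE2C (0.38 ± 0.09, adjusted p = 0.04). Neither HCT116 call remained when any 1 of the 16 arrays was left out.

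Without glutamine the genotypes stood apart, in opposite directions in the 2 lines. In HCT116 36 of the 43 genes were higher in Mut than in WT cells, against 12.3% of all genes, with a median of 0.76, against 0.01 over all genes. The largest were NDC80 (1.24 ± 0.10, 2.37-fold, adjusted p = 1.86e-05), UBE2C (1.20 ± 0.09, 2.30-fold), TOP2A (1.14 ± 0.09) and KIF2C (1.14 ± 0.10). CDK1 (1.06 ± 0.13), AURKB (0.89 ± 0.10), CDC20 and MKI67 (0.87 each), PLK1 (0.62 ± 0.09), FOXM1 (0.50 ± 0.10) and CCNB1 (0.43 ± 0.09) were higher too. The call of CCNB1 was lost without the first HCT116 Mut or the second HCT116 WT array lacking glutamine (adjusted p up to 0.0537). None was lower, where 12.4% of all genes were, and none at an unadjusted p under 0.05. The 7 that did not pass were AURKA, CDC25C, ESPL1, KIF20A, PTTG1, RACGAP1 and SPC25, and SPC25 and KIF20A, which fell on withdrawal in both HCT116 derivatives, had interactions of -0.28 ± 0.19 and -0.02 ± 0.17 that did not pass.

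In DLD1 18 of the 43 genes were lower in Mut than in WT cells without glutamine, against 5.91% of all genes, with a median of -0.39, against 0.00 over all genes. None was higher, where 4.36% of all genes were, and none at an unadjusted p under 0.05. UBE2C (-0.78 ± 0.09, 1.71-fold, adjusted p = 0.000395), CKAP2L (-0.74 ± 0.09), KIF20A (-0.70 ± 0.12) and PLK1 (-0.68 ± 0.09) had the largest differences, and the call of KIF20A was lost without the first DLD1 Mut array lacking glutamine (adjusted p = 0.0541). CCNB1 (-0.62 ± 0.09) and FOXM1 (-0.58 ± 0.10) followed. The calls of MKI67 (-0.39 ± 0.11, adjusted p = 0.047) and CDC20 (-0.36 ± 0.10, adjusted p = 0.0469) were lost in 19 and 18 of 23 alternative settings. The count came to 8 without the first DLD1 Mut array lacking glutamine and to 10 and 11 without the first and second DLD1 WT arrays lacking it. CDK1 (-0.13 ± 0.13) did not pass. In all, 17 genes were both lower in DLD1 Mut and higher in HCT116 Mut cells, which is 17 of 18 and 17 of 36, against 0.906% of all genes. With 36 of the 43 members called higher in HCT116, a large overlap follows from that count. The 2 lines share no arrays, but each gene's spread was taken from all 16, so the 2 tests are not independent. ANLN, CKAP2L, FOXM1, PLK1, PRC1, TPX2 and UBE2C kept both calls under every alternative setting.

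**Figure D4:**
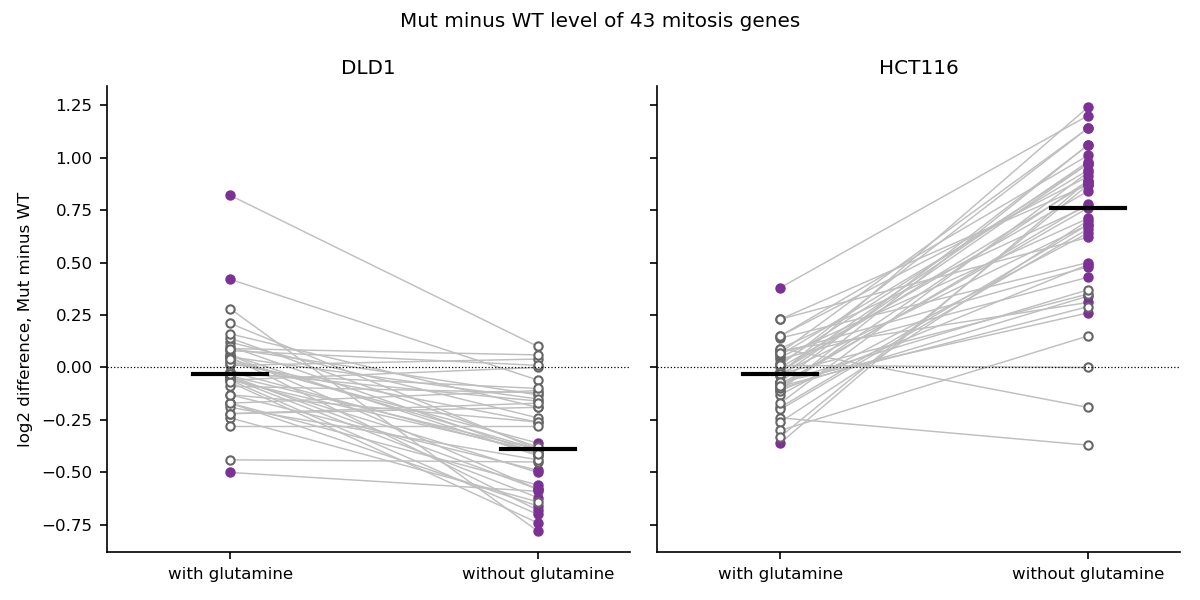
Log2 difference between Mut and WT cells (vertical) for the 43 genes with and without glutamine (horizontal) in DLD1 (left) and HCT116 (right), with a grey line per gene, filled points where the adjusted p was under 0.05 and a black bar at the median. The medians go from -0.03 to -0.39 in DLD1 and from -0.03 to 0.76 in HCT116.

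Averaged over both genotypes, the withdrawal response differed between the lines for 16 genes. It was higher in DLD1 for 13, against 10.0% of all genes, and lower for 3, against 8.93%. The higher ones were led by SPC25 (0.93 ± 0.14, adjusted p = 0.00115), ESPL1 (0.80 ± 0.18), TTK (0.72 ± 0.11) and KIF11 (0.67 ± 0.09), which on average fell less in DLD1 than in HCT116 cells or not at all. CDK1 (0.54 ± 0.13) was among them. In HCT116 Mut cells KIF11 and CDK1 differed by -0.05 and 0.12, near their DLD1 values (-0.04 to 0.18). In HCT116 WT cells both differed by -1.05. The lower ones were UBE2C (-0.62 ± 0.09), CDC20 (-0.54 ± 0.10) and CDC25C (-0.49 ± 0.14, lost in 13 of 22 alternative settings). For UBE2C the Mut derivatives differed by -0.95 in DLD1 and 0.60 in HCT116. The WT derivatives differed by 0.10 and -0.22, which did not pass. With glutamine, DLD1 cells had lower levels than HCT116 cells for 12 members, led by KIF14 (-0.69 ± 0.09), NDC80 (-0.50 ± 0.07), HMMR (-0.44 ± 0.05) and TPX2 (-0.35 ± 0.06), and higher levels for 10, led by TOP2A (0.74 ± 0.06), ECT2 (0.66 ± 0.06), KIF11 (0.64 ± 0.06) and ASPM (0.45 ± 0.07). These counts, 27.9% and 23.3% of the members, lay near the 22.5% and 24.5% of all genes called.

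Other cell division genes were counted beside the members. Of all genes 10.1% were called lower on withdrawal in HCT116 WT, 16.5% in HCT116 Mut, 16.8% in DLD1 Mut and 13.0% in DLD1 WT cells. All 33 DNA replication genes fell in HCT116 WT cells, 31 in HCT116 Mut, 30 in DLD1 Mut and 26 in DLD1 WT cells, with medians of -1.25, -0.92, -0.84 and -0.38. Among them GINS2, a subunit of the replicative helicase, fell by 2.53 ± 0.12 in HCT116 Mut and 1.90 ± 0.12 in HCT116 WT cells, and MCM5, another helicase subunit, by 1.53 ± 0.09 and 1.37 ± 0.09. In HCT116 the interaction called 4 of the 33 higher and 2 lower, with a median of 0.19, beside 28 and 0 of the 43 members with a median of 0.82. Of all genes 4.75% were called in each direction. In HCT116 Mut cells the replication genes had a median of -0.92 and the members one of 0.05. In DLD1 the interaction called 8 of the 33 lower (median -0.48), beside 3 of the 43 members (median -0.36) and 0.568% of all genes. Without glutamine 16 of the 33 were lower in DLD1 Mut than in WT cells (median -0.35). Of the members 18 were (median -0.39), and of all genes 5.91%. In HCT116 without glutamine 14 were higher and 3 lower in Mut cells (median 0.24). Of the members 36 and 0 were (median 0.76), and of all genes 12.3% and 12.4%.

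Lists of further mitotic genes also held more falls in HCT116 WT than in HCT116 Mut cells. Of all genes 10.1% fell and 10.3% rose in HCT116 WT cells, and 16.5% fell and 16.4% rose in HCT116 Mut cells. All 8 condensin genes, which compact chromosomes, fell in HCT116 WT cells, and 3 fell and 1 rose in HCT116 Mut cells. NCAPG, a condensin subunit, fell by 1.23 ± 0.09 in the former and rose by 0.31 ± 0.09 in the latter (interaction 1.54 ± 0.13, adjusted p = 0.000226). Of 26 other centromere and kinetochore genes 22 fell and none rose in HCT116 WT cells, and 10 fell and 5 rose in HCT116 Mut cells. The interaction called 16 of them higher and 1 lower, against 4.75% of all genes in each direction. Of 24 other spindle, centrosome and kinesin genes 18 fell in HCT116 WT cells, among them TACC3 (-1.11 ± 0.08), and 11 fell and 3 rose in HCT116 Mut cells. Of 11 other checkpoint genes 9 and 5 fell, with TRIP13, which recycles MAD2L1, at -1.57 ± 0.09 and -1.31 ± 0.09. Of 13 mitotic entry regulators 9 and 3 fell. WEE1, the kinase that holds CDK1 back, fell in all 4 derivatives (-0.46, -0.28, -0.47 and -0.87, each ± 0.09, from DLD1 Mut to HCT116 WT).

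Subunits and partners of the anaphase-promoting complex and the cohesins gave fewer calls. Of 17 genes of the former 5 fell and 1 rose in HCT116 WT cells (median -0.15), and 2 fell and 3 rose in HCT116 Mut cells (median 0.19). Of 12 cohesin genes 5 fell and 1 rose in HCT116 WT cells, with ESCO2, an acetyltransferase of cohesin, at -1.90 ± 0.11, and 2 fell and 4 rose in HCT116 Mut cells. Of 7 other cytokinesis genes 3 fell and 2 rose in HCT116 WT cells (median -0.08), with SHCBP1 at -1.44 ± 0.13 and ARHGAP11A at -0.93 ± 0.08, and 1 fell and 3 rose in HCT116 Mut cells (median 0.07). These counts stood against 10.1% and 10.3% of all genes in HCT116 WT cells and 16.5% and 16.4% in HCT116 Mut cells. In HCT116 Mut cells the falls on these short lists lay near the share of all genes.

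**Figure D5:**
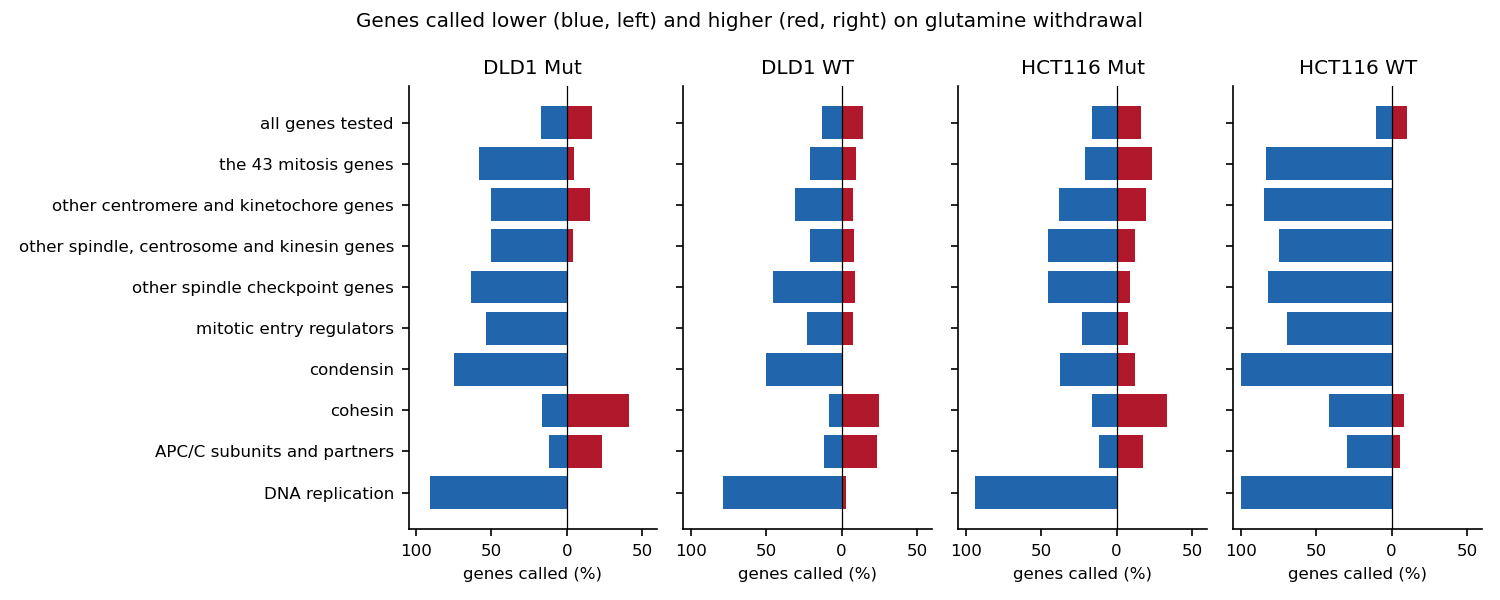
Share of the tested genes of each list called lower (blue, to the left) and higher (red, to the right) on withdrawal, in percent, in the 4 derivatives, with all 15676 genes at the top. The members fell in 83.7% of cases in HCT116 WT cells and 20.9% in HCT116 Mut cells, while DNA replication genes fell in most cases in every derivative.

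Among 13 genes that encode regulators of these promoters, MYBL2 had the largest falls. It read 9.01 and 8.94 with glutamine and 6.98 and 7.02 without in DLD1 Mut cells, 8.76 and 8.74 against 7.71 and 7.68 in DLD1 WT cells, 9.13 and 9.03 against 7.99 and 8.01 in HCT116 Mut cells, and 8.69 and 8.68 against 7.35 and 7.17 in HCT116 WT cells. The falls were 1.97, 1.06, 1.08 and 1.43, each ± 0.09, and the interaction passed in DLD1 (-0.92 ± 0.12, adjusted p = 0.0112) and not in HCT116 (0.35 ± 0.12, adjusted p = 0.0988). Over 13 genes of the MuvB complexes and NF-Y, 2 fell and 3 rose in DLD1 Mut cells, 2 and 3 in DLD1 WT, 3 and 2 in HCT116 Mut and 5 and 3 in HCT116 WT cells. In the same order the shares of all genes were 16.8% and 16.8%, 13.0% and 14.0%, 16.5% and 16.4%, and 10.1% and 10.3%. Outside HCT116 WT cells the counts lay near these shares.

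RBL1, an RB-like protein that joins the repressor form, read 7.89 and 7.77 against 6.80 and 7.14 in HCT116 WT cells (-0.86 ± 0.13) and passed in no other derivative. LIN9, a subunit of the MuvB core, fell in HCT116 WT cells (-0.54 ± 0.12), LIN54, the subunit that reads the promoter motif, rose in DLD1 Mut (0.48 ± 0.08) and WT cells (0.35 ± 0.08), and E2F4 passed in none. CDKN1A, an inhibitor of cyclin-dependent kinases, read 5.31 and 5.22 against 6.64 and 6.68 in HCT116 Mut cells and 5.37 and 5.61 against 5.81 and 6.07 in HCT116 WT cells. It rose by 1.40 ± 0.15 in the former and differed by 0.45 ± 0.15 (adjusted p = 0.0586) in the latter, and the interaction passed (0.94 ± 0.21, adjusted p = 0.0206). In DLD1 CDKN1A was dimmer, at 3.51 and 3.12 against 3.49 and 3.71 in Mut cells, which overlap. In DLD1 WT cells it read 3.49 and 3.31 against 3.92 and 3.87, which do not. Of 17 genes of the cyclins of the first gap phase and kinase inhibitors, 6 fell and 7 rose in HCT116 Mut cells, against 16.5% and 16.4% of all genes. In HCT116 WT cells 7 fell and 2 rose, against 10.1% and 10.3%.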

How the data were processed

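Expression was measured in 16 samples of DLD1 and HCT116 PIK3CA derivatives, per the labels on Affymetrix whole-transcript arrays with biotin label. The values are intensity per probe set, as deposited by the authors in the series' value table. How they were background-corrected, normalized and summarized is not given in the sources used here. That table holds 53617 probe sets, of which 23871 carry 1 gene symbol and 1842 several, by GEO's platform annotation.

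Intensities were put on the log2 scale with no further normalization. Groups came from the sample titles. Each gene was represented by its brightest probe set with 1 symbol, the 30% of genes with the lowest mean log2 intensity were left out, and 15676 genes were fitted with limma 3.58.1 in R 4.3.3 (lmFit with 8 group means over all 16 arrays, contrasts, eBayes, residual df 8 and prior df 2.49). P-values were adjusted by Benjamini-Hochberg over all 15676 genes, and a gene was called at an adjusted p under 0.05. Differences are log2 with limma's standard error (SE), and fold is the linear ratio. The 2 arrays per group limit the precision. The procedure was also run on simulated data with changes of 2 or 1 on the log2 scale, so smaller changes were not covered.

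Members, lists and comparisons were chosen with earlier results of these data known. Always named were CCNB1, CDK1, FOXM1, PLK1, AURKB, CDC20, UBE2C and MKI67, with the largest rises and falls of each comparison. Alternatives were the filter, quantile or median normalization, all probe sets of a gene, a replicate block, each line fitted alone, and leaving out each array. Promoter windows were read from RefSeq (GRCh38.p14) and searched on both strands.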

Additional observations from a re-analysis of the deposited data

Results flagged for a closer look

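The withdrawal response differed between Mut and WT cells, by the test of the difference itself, for UBE2C (-1.05 ± 0.12, SE), PLK1 (-0.73 ± 0.12) and CKAP2L (-0.67 ± 0.13) in DLD1, where a negative value means a lower response in Mut cells. None of these calls held with DLD1 fitted alone. Those of PLK1 and CKAP2L were also lost without the filter on dim genes and with a replicate block. In HCT116 the largest differences between the Mut and WT responses were those of NDC80 (1.27 ± 0.13), ANLN (1.25 ± 0.12), MKI67 (1.20 ± 0.15) and CDK1 (1.17 ± 0.19), all higher in Mut cells. The call of CDK1 was lost with HCT116 fitted alone.

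The response averaged over both genotypes differed between the lines, DLD1 minus HCT116, for SPC25 (0.93 ± 0.14), ESPL1 (0.80 ± 0.18), TTK (0.72 ± 0.11) and KIF11 (0.67 ± 0.09), and in the other direction for UBE2C (-0.62 ± 0.09), CDC20 (-0.54 ± 0.10) and CDC25C (-0.49 ± 0.14). On withdrawal KIF11 passed only in HCT116 WT cells and UBE2C only in the Mut derivatives. The call of CDC25C was lost without the filter on dim genes and with a replicate block.

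The difference between the genotypes' responses itself differed between DLD1 and HCT116, most for UBE2C (-1.88 ± 0.17, adjusted p = 0.00143), CKAP2L (-1.77 ± 0.18, adjusted p = 0.00299), MKI67 (-1.62 ± 0.22, adjusted p = 0.0076) and KIF2C (-1.58 ± 0.19, adjusted p = 0.00491). These adjusted p come from limma over all genes tested, and the comparison was added after the data were seen.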

How the results depend on the processing

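Of 251 calls of a member in a comparison, 167 held under every alternative and none reversed. All 43 members have 1 probe set each, so taking all probe sets of a gene could not change their values. The counts of falls in DLD1 Mut, DLD1 WT, HCT116 Mut and HCT116 WT cells stayed within 1.5 times under every alternative, at 17 to 25, 6 to 10, 7 to 9 and 31 to 36 with single arrays left out, where a lone array is assumed to vary like the other groups. Left-out arrays gave 1 to 2 rises in DLD1 Mut and 2 to 5 in DLD1 WT cells. For the interaction they gave 1 to 2 falls in DLD1, for the genotype difference with glutamine 1 to 2 rises in DLD1 and 0 in either direction in HCT116, for that without glutamine 8 to 18 falls in DLD1, and for the difference of interactions between the lines 14 to 24 falls.

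Replicate numbers did not pair the arrays: same-numbered arrays of 2 groups of a line correlated at -0.02 to 0.03 in their deviations. With replicate number as a block, the rises in DLD1 Mut cells came to 1, the DLD1 interaction to 1, the falls of the genotype difference with glutamine to 2 in DLD1 and 0 in HCT116, its rises in HCT116 to 0, and the difference of interactions between the lines to 15. Without the filter on dim genes the rises in DLD1 Mut cells were 1, the DLD1 interaction 1, and both HCT116 calls with glutamine 0. With genes above the median alone the DLD1 interaction had 7 falls and the response difference between the lines 5. With each line fitted alone, which leaves fewer arrays for the spread, the rises in DLD1 Mut cells were 1, the DLD1 interaction 0, the HCT116 interaction 17, the rises with glutamine 1 in DLD1 and both calls with glutamine 0 in HCT116. Median shift took the HCT116 fall with glutamine to 0 and quantile normalization the rise to 0. Apart from those of fewer genes or arrays, the cause was not tested. RACGAP1 lies close to the filter on dim genes and PTTG1 has the largest standard error, so both are the least precise.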

Other observations

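The probe set shared by BUB1B, a checkpoint kinase, and PAK6 read 7.85 and 7.75 with glutamine and 6.80 and 6.74 without in HCT116 WT cells, and 7.70 and 7.85 against 7.37 and 7.47 in HCT116 Mut cells. The DLD1 arrays read 7.74 and 7.79 against 7.50 and 7.42 in Mut and 7.63 and 7.72 against 7.53 and 7.46 in WT cells. The dimmer of the probe sets shared by CENPA, the centromeric histone, and SLC35F6 read 6.84 and 6.92 against 5.69 and 5.68 in DLD1 Mut cells and 6.84 and 6.90 against 6.17 and 6.01 in DLD1 WT cells. In HCT116 it read 6.56 and 6.50 against 6.77 and 6.80 in Mut and 6.60 and 6.62 against 6.27 and 6.18 in WT cells. The brighter probe set of this pair moved the same way as the dimmer one in DLD1 WT and HCT116 Mut cells. In DLD1 Mut and HCT116 WT cells it moved the other way. It read 8.89 and 8.90 against 8.98 and 8.91 in DLD1 Mut and 8.79 and 8.93 against 8.73 and 8.71 in DLD1 WT cells. In HCT116 it read 8.06 and 8.30 against 8.89 and 8.83 in Mut and 7.70 and 7.77 against 7.94 and 8.04 in WT cells. On these probe sets the signals of the paired genes cannot be told apart, and they were not tested.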
